A study of Mus musculus with 2 samples.

Results

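The cells described here are the conventional and mature dendritic cells of the lung, picked from 2 single-cell RNA-seq libraries by a fixed set of limits on unique molecular identifiers (UMIs, 1 for each captured RNA molecule). A barcode was kept as a cell when it had 500 to 5000 detected genes and under 7.5% of its UMIs on mitochondrial genes. Of the kept cells, those under 5% of UMIs on S100a8 and S100a9 were taken as dendritic cells when the sum of Flt3, Zbtb46, Xcr1, Clec9a, Cd209a, Fscn1 and Ccl22 reached 4 UMIs and the sum of the class II genes H2-Aa, H2-Ab1 and H2-Eb1 reached 20. They also had fewer than 3 UMIs of Siglech, none of Cd79a or Cd3e, fewer than 10 of C1qa, C1qb and C1qc together, and fewer than 5 of Marco, Krt79, Plet1, Atp6v0d2 and Fabp1 together. These limits gave 78 dendritic cells among 16995 kept cells, 35 of 8662 in the saline library and 43 of 8333 in the nanoparticle (NP) library. Because the genes above chose the cells, their levels are given only as a description.

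The study asked how drug-free nanoparticles of poly(lactide-co-glycolide) (PLG) alter immune cells in the lungs of mice with a breast tumor that can spread there. Both groups were female BALB/cJ mice aged 12 weeks that carried mammary tumors of 4T1, a mouse mammary carcinoma line (by the methods 4T1-luc2-tdTomato, which carries luciferase and tdTomato reporters), grown for 14 days after injection of 100000 cells. No library came from mice without a tumor, and how much tumor each lung held is not known here. Mice received intravenous saline or intravenous PLG nanoparticles at 3 day intervals from day 1, for 5 doses, and the lungs of 4 mice (by the sample labels) or 5 mice (by the study's methods) were pooled into 1 library for each treatment. With 1 library a group there is no replicate and no test of the treatment: a difference below is between 2 pooled libraries, and every interval covers counting error only, at 95%, not the spread between mice or between cells.

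Dendritic cells take up material in the tissue and present it to T cells. The conventional cells have 2 main forms: type 1 (cDC1), marked by Xcr1 and Clec9a and made under the transcription factors Irf8, Batf3 and Id2, excel at presenting captured antigen on MHC class I to CD8 T cells, while type 2 (cDC2), which carry Cd209a and Sirpa, mainly present on class II to CD4 T cells. After activation either form can mature, gaining the actin-bundling protein Fscn1, the chemokine Ccl22 and the receptor Ccr7, which guides the cell to the lymph node.

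The members were deep cells. Their UMIs ranged from 3031 to 24832 with a median of 15336 in the saline library and from 4468 to 23696 with a median of 16024 in the NP library, against medians of 6474.5 and 6008 over all kept cells. In total 539569 saline and 695318 NP UMIs stood behind the values below. Class II sums lay between 52 and 719 (median 438) in saline and between 22 and 797 (median 366) in NP cells. The libraries shared 21 barcodes among kept cells and none among the dendritic cells. At the edge of the limit, 3 saline and 5 NP cells had a marker sum of exactly 4, and 4 saline and 8 NP cells missed it with a sum of 3.

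Some markers of other cells were at 0, while other members of the same lists were present. Cd300e of non-classical monocytes, Marco, Krt79 and Atp6v0d2 of alveolar macrophages, Ms4a1 of B cells and Trac of T cells had no UMI in either library. Of these, Marco, Krt79 and Atp6v0d2 were limited by the choice of cells itself. The B cell list summed to 76 saline and 78 NP UMIs, in 28 and 27 cells. The alveolar macrophage list summed to 38 and 35, with 22 and 16 in 1 cell each, and the T cell list to 1 and 1. Endothelial markers (Cdh5, Cldn5, Pecam1, Ramp2) summed to 2 UMIs over the saline cells and 159 over the NP cells, where 1 cell held 87 and 2 cells reached 10. Platelet markers (Pf4, Ppbp) summed to 1 and 71, with 66 in 1 NP cell. Monocyte genes were present in both libraries: the 5 classical monocyte markers summed to 549 saline and 778 NP UMIs, and the 5 non-classical ones to 303 and 402. The interstitial macrophage list (Apoe and the C1q genes among it) had 420 and 281, with 322 and 121 in 1 cell each. Neutrophil markers summed to 773 in saline, 282 of them in 1 cell, and 272 in NP cells, between 6 and 282 UMIs a saline cell and between 1 and 16 an NP cell. The part of these markers in the results below was not tested, beyond the values without such cells that are given with them.

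Dendritic cells made up 0.404% of kept saline cells (exact binomial interval 0.282% to 0.562%) and 0.516% of kept NP cells (0.374% to 0.694%). The ratio of the shares was 1.28 with an interval of 0.8 to 2.06 that holds 1, so a difference in their share was not detectable at this number of cells. These numbers include cells with endothelial, platelet or non-classical monocyte UMIs, described below. Without such cells 34 saline and 36 NP cells were left. Kept cells also included neutrophils, and 3113 saline and 5190 NP cells remained once cells rich in S100a8 and S100a9 were set aside, so the share of kept cells depends on the number of neutrophils too.

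The mix of dendritic cell forms differed in its point values. Each cell was placed by the largest of 3 sums, Xcr1 plus Clec9a, Cd209a alone, or Fscn1 plus Ccl22, where that sum reached 2 UMIs. Xcr1 cells, led by cDC1 markers, were 18 of the 35 saline cells (51.4%, 34.0% to 68.6%) and 11 of the 43 NP cells (25.6%, 13.5% to 41.2%). Cd209a cells, led by a cDC2 marker, were 11 saline cells (31.4%, 16.9% to 49.3%) and 19 NP cells (44.2%, 29.1% to 60.1%). Fscn1 cells were 3 saline cells (8.57%, 1.8% to 23.1%) and 11 NP cells (25.6%). The remaining 3 saline and 2 NP cells had no leading sum. On the log2 scale the share of Xcr1 cells differed by −1.01 (−2.24 to 0.15), that of Cd209a cells by 0.49 (−0.65 to 1.71) and that of Fscn1 cells by 1.58 (−0.34 to 4.06), and each of these intervals holds 0. As shares of all kept cells the differences were −0.65 (−1.88 to 0.51), 0.84 (−0.3 to 2.06) and 1.93 (0.01 to 4.41), and the last interval lies just above 0.

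**Figure D1:**
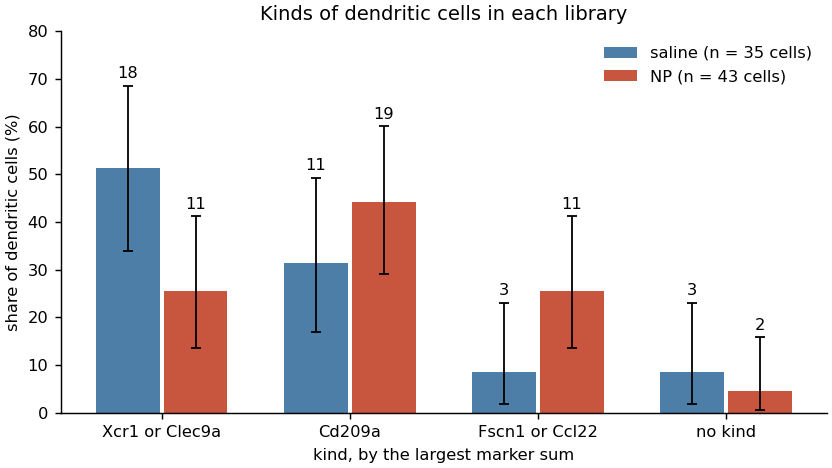
Share of each form of dendritic cell (y axis, percent of the dendritic cells of a library) by the leading marker sum (x axis), for 35 saline and 43 NP cells, with exact 95% binomial intervals as error bars. Xcr1 cells are the most numerous form in saline (51.4%) and Cd209a cells in NP (44.2%), and the intervals of each pair overlap.

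Counting single genes gave the same order. Xcr1 was seen in 16 saline cells (45.7%) and 11 NP cells (25.6%), Cd209a in 15 (42.9%) and 21 (48.8%), and Fscn1 in 2 (5.71%) and 9 (20.9%). With every cell thinned to 3000 UMIs, and no cell left out as shallower, the shares were 31.4% and 20.9% for Xcr1, 28.6% and 34.9% for Cd209a, and 5.71% and 11.6% for Fscn1. In B cells of the same libraries, which should lack these genes and had median depths of 4396 and 4507 UMIs, Xcr1 was seen in none, Cd209a in 0.207% and 0.475%, and Fscn1 in 0.415% and 0.475%. Since these genes chose the dendritic cells, their higher share there is no finding. Xcr1 and Cd209a were seen together in 4 saline cells and 1 NP cell. With the forms called again on the thinned cells, the log2 differences were −0.62 for Xcr1, −0.01 for Cd209a and 0.44 for Fscn1 cells. At 1500 UMIs a cell the difference for Xcr1 cells was 0.70, the opposite direction, so the order of the forms is not firm at lower depth. These genes lie at chr9:123852315-123862029 (Xcr1, minus strand), chr8:3743397-3748984 (Cd209a, minus strand) and chr5:142960343-142973185 (Fscn1, plus strand) of mouse build GRCm38, each a protein-coding gene of the GENCODE annotation.

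The Cd209a cells also carried monocyte genes, so the label cDC2 rests on Cd209a and not on an absence of these. The classical monocyte marker Fn1 stood at 594 CPM in saline and 480 CPM in NP Cd209a cells, with UMIs in 4 of 11 and 7 of 19 cells, against 1030 and 798 CPM in classical monocytes of the same libraries and 3.3 and 5.77 CPM in Xcr1 cells. Ccr2 stood at 1120 and 1050 CPM in Cd209a cells and at 1700 and 1540 CPM in the monocytes. Ly6c2 was at 42.9 and 54.1 CPM in Cd209a cells and at 711 and 1090 CPM in the monocytes, and the dendritic cell receptor Flt3, one of the genes that chose the cells, at 85.8 and 115 CPM against 7.34 and 2.04 CPM. Some genes that were high in Cd209a cells were also higher in saline than in NP Xcr1 cells. Csf1r stood at 56.1 and 5.77 CPM in saline and NP Xcr1 cells, Lst1 at 218 and 23.1, and S100a4 at 300 and 46.2. Ly6c2 was near level there at 13.2 and 11.5 CPM. The part of such genes in the results for Cd209a and Xcr1 cells was not tested.

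The Fscn1 cells were not of 1 kind, and the label mature dendritic cells held for only some of them. In 4 NP cells (9.3% of the dendritic cells, 2.59% to 22.1%) Fscn1 or Ccl22 went with at least 5 UMIs of Ccr7 (chr11:99144196-99155077, minus strand) and at least 3 of Cacnb3, a calcium channel subunit found in mature dendritic cells. Fscn1 had 52, 19, 84 and 74 UMIs in these cells and Ccr7 9, 41, 9 and 74. A single saline cell (2.86%, 0.0723% to 14.9%) met the same limits, with 3 UMIs of Fscn1, 16 of Ccl22, 27 of Ccr7 and 12 of Cacnb3. These limits on Ccr7, Cacnb3, Csf1r and endothelial markers were chosen after the values were seen.

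A further 4 NP cells had at least 5 UMIs of Csf1r, the receptor for the monocyte growth factor, together with 75 to 562 UMIs of lysozyme (Lyz2) and 4 to 13 of Treml4, a gene of non-classical monocytes. Flt3, Zbtb46, Cd209a and Xcr1 were at 0 in all 4, Fscn1 had 4, 8, 0 and 9 UMIs, and class II sums lay between 187 and 373. Of these, 1 cell held 39 UMIs of Ccr7, and the cells with the most Il4i1 (95 UMIs) and Cxcl9 (73 UMIs) of the whole set were also among them. Another 2 NP cells had 39 and 47 UMIs of Ramp2, an endothelial receptor partner, with class II sums of only 22 and 33. The last NP cell had 15 UMIs of Ccl22 and 8 of Cd209a. The 2 other saline Fscn1 cells had 8 UMIs of Fscn1 with 36 of Ccl5, and no Fscn1 with 282 of Ccl5. Without cells that held 10 endothelial or platelet UMIs or 4 of Cd300e, Treml4 and Ace, a check added after the data were seen, 34 saline and 36 NP cells were left, and the log2 differences in share were −0.79 for Xcr1, 0.77 for Cd209a and 0.65 for Fscn1 cells.

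**Figure D2:**
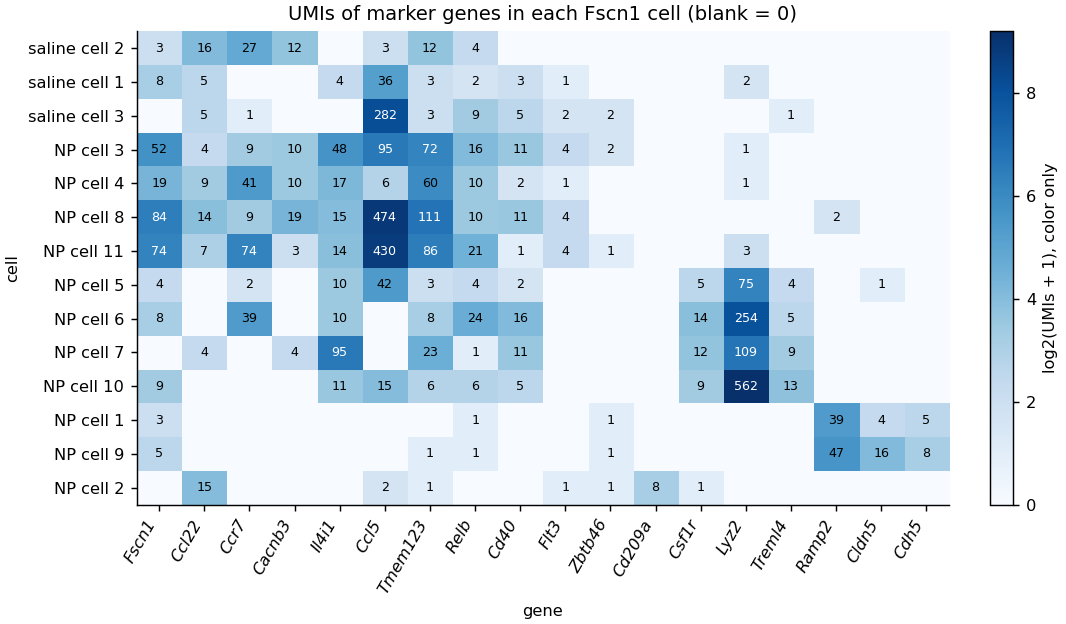
UMIs (number in each box, color on a log2 scale) of maturation, monocyte and endothelial genes (columns) in each of the 3 saline and 11 NP cells led by Fscn1 or Ccl22 (rows). High Ccr7 with Cacnb3 marks 1 saline and 4 NP cells, Csf1r with Lyz2 marks 4 other NP cells and Ramp2 marks 2 more.

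Gene levels were compared as CPM, a gene's UMIs summed over the cells of a library and scaled to a common total, for genes with at least 20 UMIs over both. Of 6015 such genes, 357 were at least 2-fold higher in NP cells (5.94%) and 249 at least 2-fold lower (4.14%), and the median log2 ratio was −0.01. In either direction by any amount, 2976 were higher and 3039 lower. Inside the forms, 1377 of 2979 measured genes were higher in Xcr1 cells, 1569 of 3111 in Cd209a cells and 923 of 1616 in Fscn1 cells. All ratios below are log2 of NP over saline CPM, with counts under 3 set to 3. Since the NP cells held fewer Xcr1 and more Fscn1 cells, a pooled ratio can come from the mix alone, so ratios are also given inside each form. A form can hold a mix of cells too, and a ratio inside it can then come from that mix. They were also recomputed with the NP forms weighted by the UMI shares that the forms had in saline (56.1% Xcr1, 30.3% Cd209a and 6.2% Fscn1, against 24.9%, 42.6% and 27.7% in NP). At the saline mix 3.64% of genes were at least 2-fold higher and 5.44% lower. Less RNA of a gene per cell and fewer cells carrying it cannot be told apart in such sums, and the number of cells with a UMI is therefore given for the genes that matter most.

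**Figure D3:**
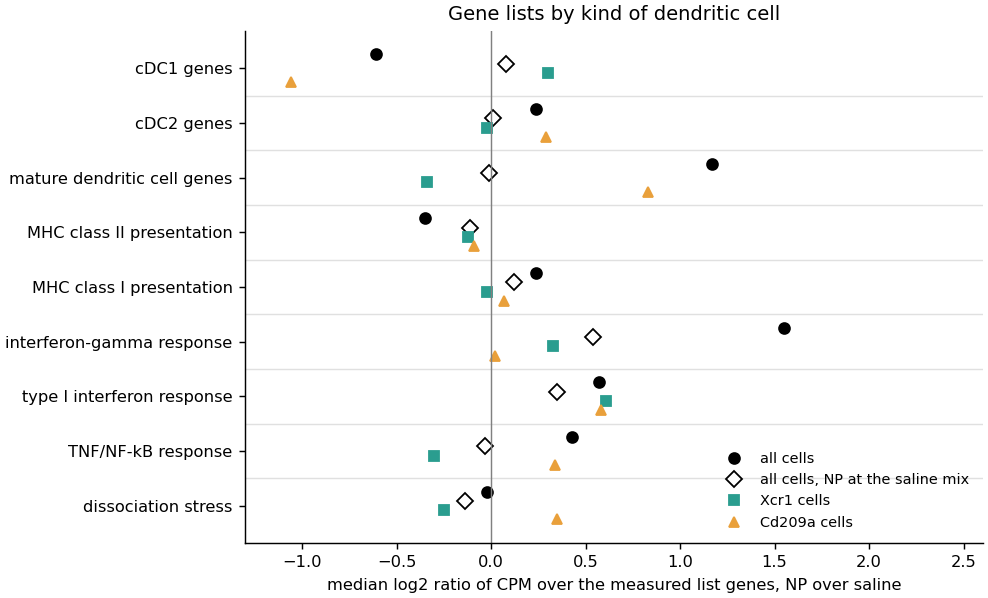
Median log2 ratio of CPM, NP over saline (x axis), over the measured genes of 9 gene lists (y axis), for all dendritic cells, for all with the NP forms weighted to the saline mix, and inside Xcr1 and Cd209a cells. The mature list lies at 1.17 over all cells and at −0.01 at the saline mix, while the type I interferon list lies above 0 in all 4.

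Genes of cDC1 identity were lower in the pooled NP cells and mostly slightly higher inside their Xcr1 cells. Of 15 measured genes of the cDC1 list, 14 were lower and 1 higher over all dendritic cells, with a median of −0.61, 2 past a 2-fold difference and none higher by that much. Inside Xcr1 cells, where 2.69% of 2979 genes were 2-fold higher and 8.16% lower, 14 of the 15 were higher and the median was 0.30. The saline Xcr1 cells were uneven, though. Sums of the mature list, scaled to the UMIs of the cell, ran from 57.2 to 454 in saline and from 164 to 555 in NP Xcr1 cells. Their medians were 268 and 237. Csf1r, Lst1 and S100a4 were also higher in saline Xcr1 cells, as given above, while Ly6c2 was near level. The part of such cells in the median of 0.30 was not tested. Irf8, the factor that sets the cDC1 fate, had 578 UMIs in 29 saline cells and 421 in 30 NP cells, a ratio of −0.82 (−1.01 to −0.64), but 0.30 (0.10 to 0.49) inside Xcr1 cells. Tlr3, a sensor of double-stranded RNA used by cDC1, had 25 UMIs in 10 saline and 32 in all 11 NP Xcr1 cells, a ratio of 1.16 (0.36 to 1.98). Wdfy4, needed for cross-presentation, stood at −0.87 over all cells and 0.21 (−0.14 to 0.56) inside Xcr1 cells, and Batf3 at −0.61 and 0.04.

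Inside Cd209a cells the same list was lower. All 8 of its genes measured there were lower, with a median of −1.06 and 4 past a 2-fold difference, where 5.37% of 3111 genes were 2-fold higher and 3.63% lower. This form held uneven cells, though. Sums of the mature list, scaled to the UMIs of the cell, were 423, 502 and 884 in some saline Cd209a cells. They were 481 and 659 in some of the NP ones, and at most 135 in all other Cd209a cells. The part of this mix in the ratios of Cd209a cells was not tested. Irf8 had 37 UMIs in 6 of 11 saline cells and 19 in 10 of 19 NP cells (−1.82, −2.70 to −0.98). Cd24a, a surface glycoprotein of cDC1, had 41 in 8 cells and 18 in 5 (−2.05, −2.93 to −1.21). Naaa, a lysosomal amidase, had 104 and 63 (−1.58, −2.06 to −1.12), and Id2 had 90 in 10 cells and 68 in 8 (−1.26, −1.74 to −0.79). Over all cells Id2 had 439 and 450 UMIs, a ratio of −0.33 (−0.52 to −0.14), which was 0.08 at the saline mix.

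Of 16 measured cDC2 genes, 11 were higher and 5 lower, with a median of 0.24 over all dendritic cells and 0.01 at the saline mix, and 1 passed a 2-fold difference in each direction. Inside Cd209a cells the median was 0.29. Sirpa, an inhibitory receptor of cDC2, had 47 UMIs in 14 saline cells and 119 in 25 NP cells, a ratio of 0.97 (0.48 to 1.49) that was 0.48 (−0.21 to 1.21) inside Cd209a cells. The lectin Clec10a stood at 0.82 (0.09 to 1.60) in Cd209a cells, with UMIs in 6 of 11 and 13 of 19 cells. Its relative Mgl2 stood at 1.62 (0.88 to 2.43) from 5 cells in each library. Cd7 had 10 UMIs in 4 saline and 58 in 9 NP Cd209a cells (1.68, 0.70 to 2.81), and Ccr2, the receptor for monocyte chemokines, lay near 0 at −0.09 (−0.36 to 0.18). Klf4, a factor for 1 branch of cDC2, was also level at −0.04.

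Maturation genes were higher over all NP cells. Of 29 measured genes of the mature list 25 were higher in NP cells, 16 of them at least 2-fold, and 4 were lower, 1 at least 2-fold, with a median of 1.17. Ccr7 had 28 UMIs in 2 saline cells and 175 in 7 NP cells, a ratio of 2.28 (1.70 to 2.91). Tmem123, a membrane glycoprotein of mature dendritic cells, had 52 UMIs in 24 cells and 399 in 27 (2.57, 2.15 to 3.02). Cd40, through which T cells license dendritic cells, had 14 UMIs in 7 cells and 78 in 16 (2.11, 1.28 to 3.05). Relb, the NF-kB subunit of mature cells, had 28 in 13 cells and 112 in 23 (1.63, 1.03 to 2.29). Il4i1, an amino acid oxidase that restrains T cells, had 5 UMIs in 2 cells and 221 in 9 (5.10, 3.86 to 6.74).

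With all forms weighted to the saline mix, this excess was gone for most of the list. At that mix the median of the list was −0.01, and the ratios were 0.14 for Ccr7, 0.09 for Relb, 0.57 for Cd40 and 0.76 for Tmem123. Il4i1 kept the highest ratio of the list, 2.96. The chemokine Ccl5 stood at −0.79, against 1.36 (1.18 to 1.54) over all cells. Inside Xcr1 cells 6 of 8 measured genes were lower, with a median of −0.34. Inside Cd209a cells 8 of 12 were higher, 5 at least 2-fold, with a median of 0.83. There Traf1, an adaptor of the TNF receptor family, had 10 UMIs in 7 cells and 73 in 14 (2.01, 1.05 to 3.13), Cd40 had 3 in 2 cells and 19 in 8 (1.81, 0.04 to 4.20), and Cd83, a surface protein of activated dendritic cells, had 16 in 8 cells and 52 in 15 (0.84, 0.01 to 1.75). Ccl17, which draws Ccr4-bearing T cells, stood at 2.71 in Cd209a cells, but its 13 saline UMIs were in 2 cells and all 154 NP UMIs in 1.

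Among the NP Fscn1 cells, the 4 Ccr7 and Cacnb3 cells held 229 of the 258 Fscn1 UMIs, 133 of the 175 of Ccr7, 1005 of the 1065 of Ccl5 and 173 of the 175 of H2-M2, a class I-like gene of mature dendritic cells with no UMI in saline (at least 45.3-fold higher against a floor of 3 UMIs over the library). The 4 Csf1r cells held more Il4i1 (126 UMIs) than the Ccr7 and Cacnb3 cells (94 UMIs). Of 12 measured costimulatory and inhibitory ligands 7 were higher and 5 lower, with a median of 0.18. The inhibitory ligand Cd274 had 10 UMIs in 4 saline and 17 in 8 NP cells (0.40, −0.81 to 1.69). Pdcd1lg2 had 12 UMIs in saline, 11 of them in the single Ccr7 and Cacnb3 cell, and none in NP cells, at least 5.15-fold lower. Cd86, a costimulatory ligand, was level at −0.25 (−0.70 to 0.20), and Tnfrsf9 had its 28 saline UMIs in 1 cell.

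Class II genes lay slightly under the median of all genes. H2-Aa, H2-Ab1 and H2-Eb1, which chose the cells, stood at −0.24, −0.18 and −0.12. Of 12 other measured class II presentation genes, 4 were higher and 8 lower, with a median of −0.35 that was −0.11 at the saline mix, and only the protease gene Ctsl passed a 2-fold difference (−1.15, with 43 and 25 UMIs). The invariant chain Cd74 had 11554 and 11639 UMIs (−0.36, −0.39 to −0.32), and lay at −0.15 inside Xcr1 and −0.18 inside Cd209a cells. The class II master regulator Ciita had 111 UMIs in 30 saline cells and 112 in 34 NP cells (−0.35, −0.74 to 0.04), with 0.02 in Xcr1 and 0.08 in Cd209a cells. H2-DMa, which loads peptides, was lower at −0.50 (−0.66 to −0.33), and at −0.58 (−0.84 to −0.31) inside Cd209a cells.

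Class I genes were mostly higher over all cells. Of 20 measured genes 16 were higher, 4 at least 2-fold, and 4 lower, with a median of 0.24 and 0.12 at the saline mix. H2-K1 (chr17:33996017-34000347, minus strand), a classical class I heavy chain, had 375 UMIs in all 35 saline cells and 1265 in all 43 NP cells (1.39, 1.22 to 1.56). It was higher in each form, with 208 and 209 UMIs in 18 and 11 Xcr1 cells (0.81, 0.53 to 1.10), 98 and 270 in 11 and 19 Cd209a cells (0.60, 0.27 to 0.95), and 1.72 in Fscn1 cells. The light chain B2m stood at 1.15 (1.02 to 1.28) over all cells, 0.26 (−0.00 to 0.52) in Xcr1 and 0.38 (0.14 to 0.61) in Cd209a cells. The other heavy chain H2-D1 stood at 0.62, 0.22 and 0.17 in the same order. Part of the pooled excess of H2-K1 and B2m came from the Fscn1 cells, where the Ccr7 and Cacnb3 cells held 418 and 561 UMIs, the Csf1r cells 213 and 317, and the endothelial-marker cells 94 and 116.

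Over the whole list the median was −0.02 in Xcr1 cells and 0.07 in Cd209a cells, close to that of all genes there. Some immunoproteasome and peptide transport genes were higher in Xcr1 cells. Psmb8 stood there at 0.48 (0.19 to 0.77), Psmb9 at 0.61 (0.26 to 0.96), the activator subunit Psme1 at 0.48 (0.15 to 0.81) and the peptide transporter Tap1 at 0.95 (0.17 to 1.74). In Cd209a cells the same genes lay at −0.07, 0.27, −0.01 and 0.02. The loading bridge Tapbp was lower in Xcr1 cells at −0.97 (−1.69 to −0.30), and 7 of 16 class I genes were higher there. Inside Fscn1 cells 14 of 16 were higher, 11 at least 2-fold, against 13.2% of 1616 genes higher and 10.9% lower by that much, with only 3 saline cells behind the ratio.

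Genes of both interferon responses were higher over all NP cells, and the median of the type I list was above 0 inside Xcr1 and Cd209a cells too. Interferon gamma acts through gamma-activated sites and interferon regulatory factors to raise guanylate-binding proteins and chemokines such as Cxcl9. Type I interferon acts through the interferon-stimulated response element. The stretches just upstream of 5 genes of these lists and of the class I light chain B2m are shown because they carry such letters and because their genes were higher over all NP cells. Each is the 150 bases before the start in the RefSeq promoter table of build GRCm38.p6, read along the gene, and capitals mark matches on either strand to the response element (GAAA, any 2 bases, GAAA) or the gamma-activated site (TTC, any 3 bases, GAA).
Gbp2, chr3:142620513-142620662, plus strand: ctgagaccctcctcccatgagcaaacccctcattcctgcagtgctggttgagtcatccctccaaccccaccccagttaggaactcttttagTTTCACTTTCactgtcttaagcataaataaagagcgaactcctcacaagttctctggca
Irf1, chr11:53769864-53770013, plus strand: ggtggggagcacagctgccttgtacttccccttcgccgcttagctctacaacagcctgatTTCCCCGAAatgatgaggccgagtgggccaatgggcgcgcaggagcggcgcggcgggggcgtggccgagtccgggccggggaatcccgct
Socs1, chr16:10785537-10785686, minus strand: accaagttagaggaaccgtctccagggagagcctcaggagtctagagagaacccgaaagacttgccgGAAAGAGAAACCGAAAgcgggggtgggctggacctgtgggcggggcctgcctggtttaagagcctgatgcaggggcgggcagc
B2m, chr2:122147537-122147686, plus strand: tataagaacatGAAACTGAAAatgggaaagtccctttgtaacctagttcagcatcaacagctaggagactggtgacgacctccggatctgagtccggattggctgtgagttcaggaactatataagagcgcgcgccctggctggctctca
Bst2, chr8:71537473-71537622, minus strand: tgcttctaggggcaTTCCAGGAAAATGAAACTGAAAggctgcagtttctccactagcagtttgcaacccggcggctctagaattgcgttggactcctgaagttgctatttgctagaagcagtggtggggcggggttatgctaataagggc
Isg15, chr4:156200819-156200968, minus strand: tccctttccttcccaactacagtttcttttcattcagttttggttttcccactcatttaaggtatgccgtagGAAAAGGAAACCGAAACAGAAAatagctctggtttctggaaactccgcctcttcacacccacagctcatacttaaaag
Isg15 held 3 overlapping response elements, Socs1 and Bst2 held 2 each, and Bst2 also held a gamma-activated site that overlaps the first of them, while Gbp2 and B2m held 1 response element and Irf1 only the gamma-activated site. Within the 250 bases before a start, the response element was found in 2.98% and the gamma-activated site in 7.02% of 32851 starts in the table. A match says only that these letters are there, and the genes were picked with their values known.

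Of 24 measured genes of the interferon-gamma list 22 were higher over all NP cells, 16 at least 2-fold, and 2 lower, with a median of 1.55. At the saline mix the median was 0.54 and in Xcr1 and Cd209a cells alone 0.13. Gbp2, a guanylate-binding protein, had no UMI in saline cells and 38 in 9 NP cells, at least 9.83-fold higher, of which 36 were in Fscn1 cells, 1 in a Cd209a cell, 1 in a cell with no leading sum and none in Xcr1 cells. Gbp4 had none and 43, at least 11.1-fold higher, with 31 in the endothelial-marker cells and 9 in the Ccr7 and Cacnb3 cells. Its relatives Gbp5 and Gbp7 had 4 and 28, and 4 and 19 UMIs. Cxcl9, which draws Cxcr3-bearing T cells, had 74 NP UMIs, of which 73 were in 1 Csf1r cell, and the 31 UMIs of Iigp1, an immunity-related GTPase, were in the endothelial-marker cells. Without the cells that held endothelial, platelet or non-classical monocyte UMIs the list median was 0.93. It was 2.64 with up to 7500 detected genes and 0.41 over genes with at least 50 UMIs.

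Some interferon-gamma genes differed outside the Fscn1 cells. Irf1, an early interferon regulatory factor, had 23 UMIs in 13 saline cells and 64 in 22 NP cells (1.11, 0.40 to 1.87), and in Cd209a cells 4 UMIs in 2 and 28 in 11 cells (1.95, 0.43 to 3.92). In Xcr1 cells it lay at −0.09 (−1.65 to 1.34). Socs1, a brake on interferon signaling, had 2 UMIs in 2 saline cells and 31 in 9 NP cells (3.00, 1.61 to 6.70), with none and 10 in Xcr1 cells. The list had medians of 0.33 over 7 genes in Xcr1 cells, 5 of them higher, and 0.02 over 9 genes in Cd209a cells, 5 of them higher.

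The median of the type I interferon list was above 0 over all cells and inside each form, though forms held uneven cells. In the Fscn1 form the high values were in cells with monocyte or endothelial genes. In the Cd209a form the low values were in the cells with high sums of the mature list. Of 25 measured genes 21 were higher, 5 at least 2-fold, and 4 lower, none by that much, with a median of 0.57 over all cells, 0.35 at the saline mix, 0.61 inside Xcr1 cells, 0.58 inside Cd209a cells and 0.80 inside Fscn1 cells, where all 10 measured genes were higher. In Xcr1 cells 7 of 11 genes were higher, 4 at least 2-fold, and in Cd209a cells 12 of 18, 5 at least 2-fold. Of all measured genes, 1377 of 2979 were higher in Xcr1 cells, 1569 of 3111 in Cd209a cells and 923 of 1616 in Fscn1 cells. At least 2-fold higher were 2.69%, 5.37% and 13.2% of all measured genes in the same order. Ly6e (chr15:74955051-74959905, plus strand), an interferon-induced surface protein, had 40 UMIs in 10 saline cells and 194 in 22 NP cells (1.91, 1.41 to 2.44). It had 18 in 4 and 50 in 8 Xcr1 cells (2.28, 1.48 to 3.15) and 19 in 5 and 71 in 8 Cd209a cells (1.04, 0.30 to 1.86). Irf7, the master regulator of type I interferon, had 27 in 11 and 67 in 20 cells (0.95, 0.28 to 1.65), and stood at 1.42 (0.42 to 2.47) in Xcr1 and 0.86 (−0.19 to 2.05) in Cd209a cells. Zbp1, a sensor of left-handed nucleic acid, had 10 in 8 and 53 in 20 cells (2.04, 1.05 to 3.18), with 2.42 (0.73 to 4.77) in Cd209a cells. Parp14 stood at 1.63 (0.77 to 2.59), Isg15, a ubiquitin-like protein, at 1.14 (0.34 to 2.00) and Bst2 at 0.69 (0.23 to 1.17).

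Single genes of the list differed between forms. Ifi27l2a was lower in Xcr1 cells (−0.89, −1.49 to −0.32) and higher in Cd209a cells (0.63, 0.36 to 0.91). Summed over the list, a cell held a median of 17.4 UMIs per 10000 in saline Xcr1 cells (5.77 to 47.3) and 20.9 in NP Xcr1 cells (7.1 to 41.8), and 49.3 (3.3 to 149) against 52.0 (9.94 to 211) in Cd209a cells. The cells of the libraries overlapped over nearly the whole range. Cd209a cells with mature list sums of 423 to 884 held 3.3 to 14.1 UMIs of the type I list per 10000. All other Cd209a cells held 17.5 to 211. The part of this mix in the type I median of Cd209a cells was not tested. Among Fscn1 cells, the 4 NP Ccr7 and Cacnb3 cells held 8.94 to 21.8 UMIs of the list per 10000, near the 3.51 to 14.2 of the 3 saline cells. The 4 Csf1r cells held 23.6 to 83.0 and the 2 endothelial-marker cells 69.1 and 89.7. Ifitm1, a membrane protein also induced by interferon and outside the list, was lower, with 277 UMIs in 22 saline cells and 86 in 22 NP cells (−2.05, −2.42 to −1.70), at −2.48 (−3.47 to −1.62) in Xcr1 and −1.71 (−2.19 to −1.24) in Cd209a cells, and it stood among the 10 lowest of all genes with at least 50 UMIs. With up to 7500 detected genes allowed its ratio was −1.14.

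**Figure D4:**
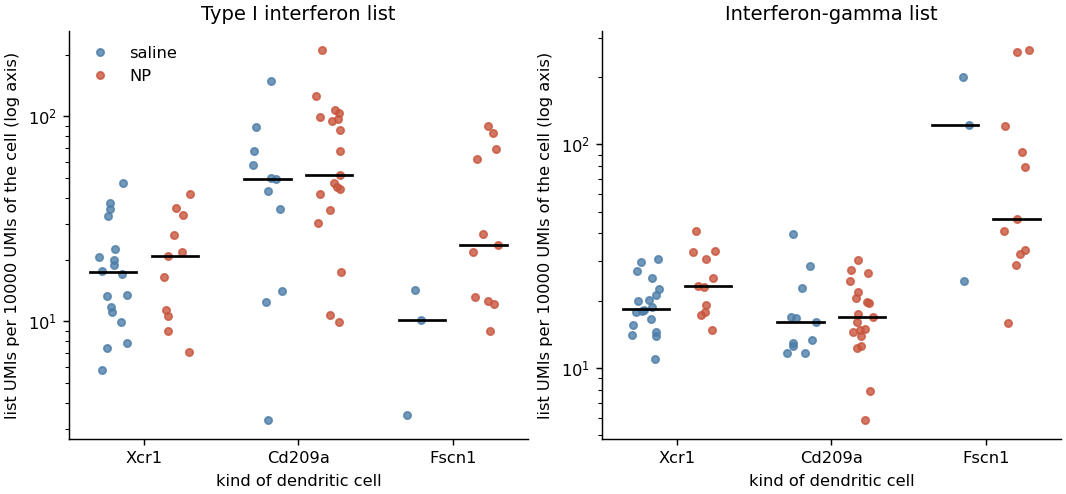
UMIs of the type I interferon list (left) and the interferon-gamma list (right) per 10000 UMIs of the cell (y axis, log scale), 1 point a cell and a bar at the median, for Xcr1, Cd209a and Fscn1 cells (x axis) of the saline and NP libraries. Saline and NP cells of the Xcr1 and Cd209a forms overlap, with medians of 17.4 and 20.9, and of 49.3 and 52.0, for the type I list. The interferon-gamma list holds Ccl5, which makes up most of the highest sums among Fscn1 cells.

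The type I list was also measured in cells most like the dendritic cells here. In plasmacytoid dendritic cells (17 saline and 35 NP cells, with at least 3 UMIs of Siglech) none of 20 measured genes was higher, 14 were at least 2-fold lower, and the median was −1.57. Of all genes measured there, 6.51% were at least 2-fold higher and 3.59% lower. Irf7 had 100 and 86 UMIs there (−1.41, −1.84 to −0.98). In classical monocytes (417 and 954 cells) all 40 measured genes of the type I list were higher, 7 at least 2-fold, with a median of 0.58, where 3.73% of all genes were 2-fold higher and 1.57% lower. In non-classical monocytes (147 and 471 cells) 29 of 38 were higher, 4 at least 2-fold, with a median of 0.30, where 4.71% of all genes were 2-fold higher and 2.95% lower. The interferon-gamma list stood at 1.52 and 1.12 in these monocytes and at −0.07 in plasmacytoid cells. Whether these values differ from those of the dendritic cells could not be tested with 1 library a group.

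**Figure D5:**
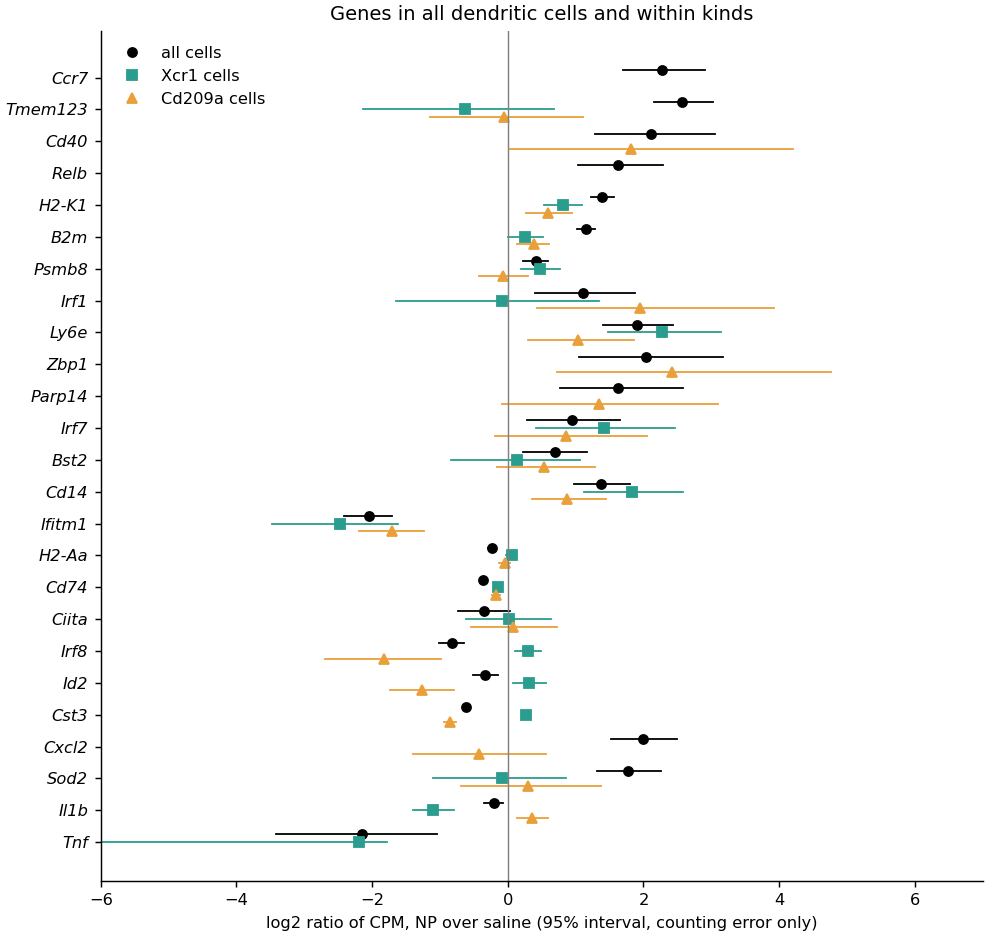
Log2 ratio of CPM, NP over saline (x axis), with 95% counting intervals, for maturation, class I, interferon, class II, cDC1 and inflammatory genes (y axis), over all dendritic cells and inside Xcr1 and Cd209a cells where measured. A line that reaches the edge of the plot goes on past it. H2-K1 and Ly6e lie above 0 and Ifitm1 below 0 in all 3, while Irf8 lies below 0 over all cells (−0.82) and above 0 in Xcr1 cells (0.30).

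Genes of the TNF and NF-kB response were mostly lower inside Xcr1 cells and mostly higher inside Cd209a cells. Over all cells 29 of 38 were higher, 12 at least 2-fold, and 9 lower, 2 by that much, with a median of 0.43 that was −0.03 at the saline mix. In Xcr1 cells 18 of 24 were lower, 8 at least 2-fold, and the median was −0.30. Of all 2979 genes measured there 1602 were lower, and 8.16% of the 2979 were at least 2-fold lower. In Cd209a cells 20 of 28 were higher, 7 at least 2-fold, with a median of 0.34. Of all 3111 genes measured there 1569 were higher, and 5.37% of the 3111 were at least 2-fold higher. The inhibitor Nfkbia had 250 UMIs in 15 saline and 101 in 10 NP Xcr1 cells (−0.50, −0.85 to −0.16), and 42 in 7 and 169 in 17 Cd209a cells (1.15, 0.66 to 1.67). Nfkbiz stood at −2.31 (−3.82 to −1.09) and 1.11 (0.17 to 2.16), and Traf1 at −1.65 and 2.01. Tnfaip3, which ends NF-kB signaling, was lower in Xcr1 cells (−1.72, −3.01 to −0.62), as was the adhesion molecule Icam1 (−1.78, −3.07 to −0.69), while Nfkb1 was higher in Cd209a cells (1.07, 0.48 to 1.70).

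Early stress genes, which cell isolation itself can raise, had the same signs. Their list had a median of −0.25 in Xcr1 cells, with 14 of 20 lower, and of 0.35 in Cd209a cells, with 15 of 20 higher, and −0.02 over all cells. Fos stood at 0.43 (0.28 to 0.57) and 1.08 (0.88 to 1.28), Nr4a1 at −1.04 (−1.5 to −0.6) and 1.35 (0.86 to 1.88), and Atf3 at −1.84 and 0.30. The heat shock gene Hspa1a was lower in both, at −2.75 and −2.09. The part of the stress genes in the difference of the TNF and NF-kB genes was not tested.

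Of the inflammatory cytokines Il1b was lower in Xcr1 and higher in Cd209a cells. It had 800 UMIs in 28 saline cells and 890 in 34 NP cells (−0.21, −0.35 to −0.07), with 449 and 120 in Xcr1 cells (−1.10, −1.40 to −0.80) and 224 and 519 in Cd209a cells (0.35, 0.13 to 0.59). Tnf had 31 UMIs in 6 saline cells, 23 of them in 1, and 9 in 6 NP cells (−2.15, −3.41 to −1.04). Osm, a cytokine of the interleukin-6 family, had 3 UMIs in 3 saline and 37 in 8 NP Cd209a cells (2.77, 1.11 to 5.11). Ebi3, a subunit of interleukin-27 and interleukin-35, was lower, with 34 UMIs in 20 cells and 14 in 10 (−1.65, −2.66 to −0.71). Il12b had none in saline and 5 in 1 NP cell. Il10, Il23a and Ifnb1 had no UMI in either library, which a count of 0 in 35 saline cells holds to a share of cells with a UMI of up to 10.0% by the exact interval. Over the list of 9 measured cytokines 3 were higher, 2 at least 2-fold, and 6 lower, 3 at least 2-fold, with a median of −0.48. Of 9 measured chemokines 7 were higher, 3 at least 2-fold, and 2 lower, 1 at least 2-fold, with a median of 0.23, and Ccl3 and Ccl4 were lower, with 22 of 28 and 106 of 134 saline UMIs in 1 cell. Of 9 chemokine receptors 4 were higher and 5 lower, with a median of −0.01.

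Of 6 genes that the study names for dendritic cells (Id2, Fpr2, Tnfaip2, Gbp2, Sod2 and Cxcl2), 5 were at least 2-fold higher over all cells, with a median of 1.88 that was 0.41 at the saline mix. The study chose these genes on these libraries, so their direction is not independent evidence. The neutrophil-drawing chemokine Cxcl2 had 44 UMIs in 9 saline cells and 226 in 11 NP cells (1.99, 1.52 to 2.50), of which 199 were in the 4 Csf1r cells. Without the cells that held endothelial, platelet or non-classical monocyte UMIs the ratio of Cxcl2 was −0.74. The antioxidant enzyme Sod2 stood at 1.77 (1.31 to 2.26) with 153 of 207 UMIs in those cells, and at 0.02 without them. Tnfaip2 stood at 1.16 with 63 of 92, and all 44 NP UMIs of the formyl peptide receptor Fpr2 were there, against 2 in saline cells (3.51, 2.15 to 7.18). Inside Xcr1 cells only Sod2 (−0.09) and Id2 (0.32) could be measured, and inside Cd209a cells 1 of 4 was higher.

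The 10 highest ratios among genes with at least 50 UMIs rested on 2 to 9 NP cells a gene. Saa3, an acute phase protein, had 9 and 894 UMIs (6.27), with 801 in 1 cell. Clec4e, a lectin for damaged cells and mycobacteria, had 2 and 151 (5.29, 3.99 to 8.93), and the complement factor Cfb 1 and 156 (5.33, 4.42 to 12.23), with 144 and 153 in the Csf1r cells. Lyz1 had 9 and 428, with 422 in 1 Cd209a cell, and Ctla2a, a protease inhibitor, 1 and 260 in 5 NP cells (6.07, 5.17 to 12.97). Fxyd2 had 104 NP UMIs with 101 in 1 cell, and Ramp2 and Prss23 had 91 and 61 NP UMIs, 86 and 61 of them in the endothelial-marker cells. The other 2 were H2-M2 and Il4i1.

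Beside Ifitm1 the 10 lowest were Cd209d (51 and 12 UMIs, 37 of the first in 1 cell, −2.45), the lipase Lpl (−2.03), Rab11fip1 with 70 UMIs in 26 cells and 28 in 19 (−1.69), the cyclin Ccnd2 (−1.65), the lectin Cd207 of a cDC1 subset (−1.65), Pglyrp1 (−1.63), Egr3 (−1.52), Dna2 (−1.49) and Cldn1 (−1.47). At the saline mix Cd207 stood at −0.52 and Egr3 at −0.51, and the others between −0.88 and −2.69. In Cd209a cells the 5 highest were Lyz1, Ctla2a, Pf4, Nrgn and Mt1, of which Pf4 and Nrgn, both platelet genes, had 56 and 53 of their UMIs in 1 cell. Mt1, a metal-binding stress protein, had 20 UMIs in 6 and 263 in 15 cells (2.86, 2.20 to 3.59). The 5 lowest there were Cd209d, Ccnd2 (−2.59), Hspa1a, Cd24a and Irf8.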

How the data were processed

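Lungs were made into single cell suspensions and sequenced on the 10x Genomics platform. The authors mapped the reads with Cell Ranger to mouse build mm10. The file header gives version 4 and the submitters' processing notes version 6.0. The deposited values are raw UMI counts per gene and barcode, with no normalization, over all barcodes. Library totals were 91168129 (saline) and 90081747 (NP) UMIs. Cells were chosen by the limits in the report, and the study's own limits of 500 to 5000 genes and under 7.5% mitochondrial UMIs were used. Scrublet (scanpy 1.11.5) marked 1 of 8662 saline cells, so that it did not work there, and 307 of 8333 NP cells (3.684%), none of them a dendritic cell, and doublets were kept.

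UMIs were summed over cells and compared as CPM (scipy 1.17.1 and numpy 2.4.6 under Python 3.11.15, tables with pandas 2.3.3, figures with matplotlib 3.10.9). Intervals are exact: conditional binomial for ratios and Clopper-Pearson for shares, at 95%. A gene needed 20 UMIs over both libraries, and a count under 3 was set to 3. No p-value is given, since each treatment has 1 pooled library. The ratio and the cell limits were tested on simulated data. Of 32285 genes in the files, 99.6% were found by identifier in GENCODE M21, which gave coordinates. Promoters are from RefSeq. Shares of a list with a motif are not given, because under 80% of the measured interferon genes had a promoter in the table (70.8% and 68.0%).

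Genes named are those of fixed lists (cell identity, presentation, ligands, interferon, TNF and NF-kB, chemokines, cytokines, transcription factors, receptors, cell cycle, stress and markers of other cells), the 10 highest and 10 lowest ratios among genes with at least 50 UMIs, the 5 highest and 5 lowest in Cd209a cells, and the genes the study names for dendritic cells. The members and lists were chosen with earlier results of these data known, so no list is independent evidence. Alternatives were other limits on cells and genes, doublet removal, thinning, scaling, equal weight per cell, subtraction of free RNA and the saline mix.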

Additional observations from a re-analysis of the deposited data

Results flagged for a closer look

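The type I interferon list pointed in opposite directions in related cells. Its median log2 ratio, NP over saline, was 0.57 in the dendritic cells described here and −1.57 in plasmacytoid dendritic cells, where none of 20 measured genes was higher. The difference between them was not tested.

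Xcr1 and Cd209a cells also pointed in opposite directions by the medians of gene ratios, but not by list sums per cell. The TNF and NF-kB list had a median of −0.30 in Xcr1 cells and 0.34 in Cd209a cells, and the list of stress genes of −0.25 and 0.35. Summed per cell, the median of the TNF and NF-kB list was lower in NP cells of both forms. That of the stress list was higher in both. The difference was not tested, and the numbers of cells were 18 and 11 for Xcr1 and 11 and 19 for Cd209a cells.

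Cells above 5000 detected genes, which the comparisons leave out, held a signal in the NP library. Of 8 NP cells there that met all other limits for dendritic cells, 7 had at least 10 UMIs of endothelial markers, against none of 2 such saline cells.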

How the results depend on the processing

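No paired analysis was possible because each treatment had 1 library. Over all alternatives, 213 values that answer a comparison stayed within the interval of the reported value (for a count of genes, within 1.5 times), 14 left it and 2 reversed, and of single genes 368 stayed, 53 left it and 6 reversed. The TNF and NF-kB median, −0.03 at the saline mix, crossed 0 inside that interval. With NP forms weighted to the saline mix, 219 genes were higher 2-fold, and the medians of the mature (−0.01) and cDC1 (0.08) lists reversed, as did Ccl5 (−0.79), Irf8 (0.21) and Id2 (0.08). Genes higher 2-fold numbered 1065 with up to 7500 detected genes, 592 with a marker sum of 3, and 129 and 717 (68 and 539 lower) with at least 50 and 10 UMIs. The log2 difference in the share of Xcr1 cells was 0.70 in cells thinned to 1500 UMIs.

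Checks chosen after seeing the data left 209 genes higher 2-fold without cells holding endothelial, platelet or non-classical monocyte UMIs (Cxcl2 −0.74), and 150 in Xcr1 and Cd209a cells alone, with medians of 0.13 (interferon-gamma), −0.12 (TNF and NF-kB), 0.12 (mature) and 0.74 (cDC2), Tmem123 at −0.16 and Cxcl2 at −0.39. The type I interferon median stayed between 0.34 and 0.71. Beyond what the weighting and the left-out cells show by construction, the cause of these moves was not tested. With 35 and 43 cells, a form of 3 cells limits every ratio inside it, and intervals leave out the spread between mice.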

Other observations

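Of 23 measured genes of the transcription factor list, which shares Irf8, Batf3 and Id2 with the cDC1 list, 11 were higher and 12 lower. At least 2-fold higher were Relb, given above, and Cebpb, a factor of inflammatory myeloid cells, with 166 UMIs in 25 saline cells and 588 in 31 NP cells (log2 ratio 1.46, 1.21 to 1.72). It stood at −1.13 (−1.83 to −0.49) in Xcr1 cells and 0.84 (0.43 to 1.27) in Cd209a cells, and 333 of its NP UMIs were in Fscn1 cells, which held none in saline. Notch2, which supports 1 branch of cDC2, was lower with 86 UMIs in 31 cells and 55 in 26 (−1.01, −1.53 to −0.51), and at −1.38 (−2.40 to −0.40) in Cd209a cells. Inside Cd209a cells the myeloid factor Spi1 stood at 0.60 (0.18 to 1.04) and Runx3 at 0.83 (0.05 to 1.68).

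Uptake and pattern receptors had a median of 0.42, with 12 of 17 measured genes higher, 4 at least 2-fold, and 5 lower, 3 by that much. Cd14, a co-receptor for bacterial lipid, had 65 UMIs in 18 saline cells and 217 in 25 NP cells (1.37, 0.97 to 1.80). It stood at 0.88 (0.35 to 1.45) in Cd209a cells, with UMIs in 8 of 11 and 15 of 19 cells, and at 1.83 in Xcr1 cells, where its 51 NP UMIs were in 3 cells. Clec4n, a lectin that binds fungal sugars, had 2 UMIs in 2 saline and 28 in 8 NP Cd209a cells (2.36, 0.96 to 6.06). Tlr11, a sensor of profilin, was lower over all cells (−1.22, −2.20 to −0.30) and level in Xcr1 cells (0.03). Cxcr3 had its UMIs almost wholly in Xcr1 cells, 15 in 8 saline and 17 in 5 NP cells (0.99, −0.10 to 2.09).

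Of 14 measured growth factor and tolerance genes 11 were higher and 3 lower, with a median of 0.23. The growth factor receptor Kit was lower, with 43 UMIs in 17 cells and 22 in 12 (−1.33, −2.14 to −0.56), and at −0.52 (−1.52 to 0.42) inside Xcr1 cells. Csf1r had 52 UMIs in 14 saline and 124 in 26 NP cells (0.89, 0.41 to 1.38) and 0.50 (−0.14 to 1.19) inside Cd209a cells. Cell cycle genes were sparse, with 5 measured, 4 of them higher, and none past a 2-fold difference. In Xcr1 cells Apoe had 331 UMIs in saline and 1 in NP cells, but 322 of the first were in 1 cell.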
